A study of Mus musculus with 46 samples.

Results

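The mouse gene table held 92 numbered orphan-type receptors among 23329 gene symbols. They are the genes whose symbol is Gpr followed by a number and at most 1 letter, taken by name alone, with Gpr34 left out. Their levels were described in microglia (MG), which settle the brain before birth, and in macrophages that enter the tumour from the blood, labelled bone marrow-derived (BMDM), sorted from the same gliomas of 23 mice. Gliomas had been started by injecting DF1 cells, a chicken fibroblast line carrying the RCAS-PDGFB-HA virus, into the brain of nTVA mice with Ink4a/Arf KO/KO alleles at an age given as 6 weeks in 1 place of the labels and as 5 to 6 weeks in another. Every mouse in the series, those given vehicle included, carried these alleles and a PDGFB-driven tumour, and no library came from a tumour-free brain. The 7 stages were vehicle (4 mice), 5 days of BLZ945, an inhibitor of the CSF1 receptor (4), 5 days of irradiation, labelled IR (2), 5 days of both (3), and recurrent tumours after BLZ945 (2), IR (4) and IR with BLZ945 (4). By the labels, each mouse gave 1 MG library and 1 BMDM library, 46 in all. The series asked how each population responds to therapy in regressing and in regrowing tumours. In the sort gate of CD45+ and CD11b+ cells without Ly6C or Ly6G, CD49d- cells were taken as MG, with CD49d+ cells as the other population, so the populations are defined by the sort and not by lineage tracing.

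G protein-coupled receptors span the membrane several times and pass signals from outside the cell to G proteins within. The numbered Gpr symbols were given to receptors cloned by sequence before a ligand was known, and many of them have since been paired with one. They therefore mix unrelated branches: acid sensors, receptors for lipids and metabolites, relatives of nucleotide and chemoattractant receptors, adhesion receptors with long outer domains, and proteins of the Golgi or lysosome that were named by resemblance. In macrophages such receptors are known for guiding movement, sensing tissue acid and fatty acids, and tuning inflammatory output.

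Total counts per library ran from 3007379 to 16993474, and the 92 receptors together took 0.118 to 0.271% of them. Levels below are in log2 CPM, the log2 of counts scaled to a common library total, with a prior count of 1, on which a count of 0 reads -3.53. A total of 6 libraries stood apart: BMDM of the 5-day BLZ945 mice 122 and 124, MG of the 5-day IR-BLZ945 mouse 65971 and MG of the IR-recurrent mouse 68344, which had few detected genes, and both libraries of the 5-day IR mouse 65698. In that mouse alone of 23 the sex-linked genes did not match between the pair of libraries: Xist exceeded 4 Y-linked genes in MG, and the Y-linked genes exceeded Xist in BMDM. Tests were run with and without these 6 libraries. The same genes showed that sex was not balanced over the stages. Every 5-day BLZ945 mouse had Xist above the Y-linked genes, and every IR-recurrent mouse the reverse. Under vehicle, mouse 41 had the Y-linked genes higher, and mice 65966, 65967 and 78 had Xist higher. No test took sex into account, and its part in the stage comparisons below was not tested. All 12 microglia markers were higher in MG and 11 of 12 markers of blood-derived macrophages lower. Both lists were present in both populations. In vehicle tumours the microglia markers summed to 17843 to 38218 CPM in MG and 5191 to 10451 CPM in BMDM. The markers of blood-derived macrophages summed to 399 to 4222 CPM in MG and 1309 to 5248 CPM in BMDM, with overlap. The 10 markers of T and NK cells summed to 23.9 to 285 CPM in vehicle BMDM and 1.04 to 19.5 CPM in vehicle MG. The 6 markers of dendritic cells summed to 594 to 950 CPM in vehicle BMDM and 5.07 to 15.4 CPM in vehicle MG. The 7 neutrophil markers summed to 25.3 to 1538 CPM in vehicle BMDM and 0.782 to 34.5 CPM in vehicle MG. The 7 astrocyte markers summed to 40.1 to 136 CPM in vehicle BMDM and 408 to 2390 CPM in vehicle MG. The part of these lists in the results between the populations was not tested. Lars2, a gene that moved with stage in both populations, lay at 11.43 to 15.22 log2 CPM in recurrent libraries, 1.90 to 9.70 in 5-day libraries and 2.99 to 13.87 in vehicle libraries.

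Most receptors of this name were detected at low levels in these cells. Only 12 of the 92 exceeded 1 CPM in all 46 libraries: Gpr35, Gpr56, Gpr65, Gpr84, Gpr89, Gpr107, Gpr108, Gpr137b, Gpr146, Gpr157, Gpr180 and Gpr183. Gpr139 had no count in any library, and 28 more had totals of 1 to 65 counts (median 24) over all libraries, too few to be tested. The remaining 63 passed the low-count filter when the populations were compared, 52 in MG alone and 53 in BMDM alone. A gene can pass that filter through the 1 group in which it is high. In any library the 5 most abundant of the 92 held 40.8 to 75.2% of all counts of these receptors.

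The ranking of levels per kilobase of exon differed between the populations. In MG, mean levels were 262 CPM per kb for Gpr84, 55.0 for Gpr65, 53.0 for Gpr56, 45.9 for Gpr183 and 37.2 for Gpr108. In BMDM they were 110 for Gpr65, 91.3 for Gpr171, 65.2 for Gpr183, 37.0 for Gpr108, 36.2 for Gpr35 and 27.9 for Gpr84. Gpr84, a receptor for medium-chain fatty acids, thus led in MG and came after the acid sensor Gpr65 and 4 others in BMDM. Gpr84 alone held 25.2% of the receptor counts in MG, and Gpr56 17%. In BMDM the shares were flatter, 14.9% for Gpr65, 12.9% for Gpr171, 12.1% for Gpr183 and 11.2% for Gpr35.

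The receptors are spread over the genome, and 29 of the 92 share exon bases with another annotated gene, where reads cannot be assigned to either without strand. On GRCm38, Gpr84 lies on chromosome 15 at 103308233 to 103310670, and shares exon bases with the predicted gene Gm49482. The acid sensors Gpr65 and Gpr132 lie on chromosome 12 at 98268635 to 98276722 and 112850873 to 112868416, and Gpr65 shares exon bases with Gm47566. Gpr141 lies on chromosome 13 at 19749680 to 19824336, Gpr35 on chromosome 1 at 92948052 to 92986391, and Gpr165 on the X chromosome at 96713468 to 96719388. Gpr171 lies on chromosome 3 at 59096448 to 59101821 within Med12l, and Gpr183 and Gpr18 on chromosome 14 at 121952331 to 121965193 and 121911434 to 121915888 within introns of Ubac2, each on the strand opposite to the longer gene. The strand setting of the counting is not given in the sources used here.

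MG and BMDM differed in the levels of many of these receptors. Averaged over the 7 stages, 36 of the 63 tested receptors differed by edgeR's quasi-likelihood test at a Benjamini-Hochberg adjusted p of 0.05 over 15901 genes, 19 higher and 17 lower in MG, where 33.6% of all genes tested differed, 18.2% higher and 15.4% lower. Among those higher in MG were Gpr3, Gpr21, Gpr56, Gpr77, Gpr81, Gpr84, Gpr98, Gpr107, Gpr123, Gpr125, Gpr137b, Gpr137c, Gpr146, Gpr153, Gpr155, Gpr158, Gpr162 and Gpr165. Among those lower were Gpr4, Gpr18, Gpr31c, Gpr33, Gpr35, Gpr55, Gpr65, Gpr82, Gpr85, Gpr97, Gpr126, Gpr132, Gpr141, Gpr171 and Gpr183. The median difference of MG minus BMDM mean levels was 0.29 over the 63 tested receptors and 0.11 over all genes tested, both in log2 CPM. Log2 fold changes are given as MG minus BMDM, or as the later or treated group minus the other, ± SE. For 13 tested receptors that did not pass, both populations held groups without counts, and no finite averaged difference was obtained. A further 14, of which 10 passed, had such groups in 1 population alone, and the size of their average depends on the fit's prior count. Of the 36, 6 did not pass with the mouse as a block (Gpr21, Gpr31c, Gpr85, Gpr98, Gpr123 and Gpr158), 6 with 1 common population term in place of the average (Gpr21, Gpr77, Gpr85, Gpr98, Gpr137c and Gpr158), 4 without the libraries that stood apart (Gpr33, Gpr98, Gpr123 and Gpr137b) and 2 by DESeq2 (Gpr21 and Gpr158). Libraries named below after the word without were left out 1 at a time, and each ended the call by itself. Where an adjusted p of 1 is given for an average without 1 library, that library was the only one of its group with a count, and the average was no longer estimated. In sorted bulk cells, fewer cells of a type and less RNA per cell cannot be told apart.

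Of the 36, Gpr132, Gpr141 and Gpr171 had no MG library within the range of the BMDM libraries. How many of all genes lack overlap, here or between the smaller groups below, was not counted. Within mice as labelled, mouse 65698 included, Gpr56, Gpr84, Gpr153 and Gpr155 were higher in MG than in BMDM in 23 of 23. Gpr18, Gpr35, Gpr82, Gpr132, Gpr141 and Gpr171 were lower in 23 of 23. The share of all genes that went the same way in every mouse was not counted.

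**Figure D1:**
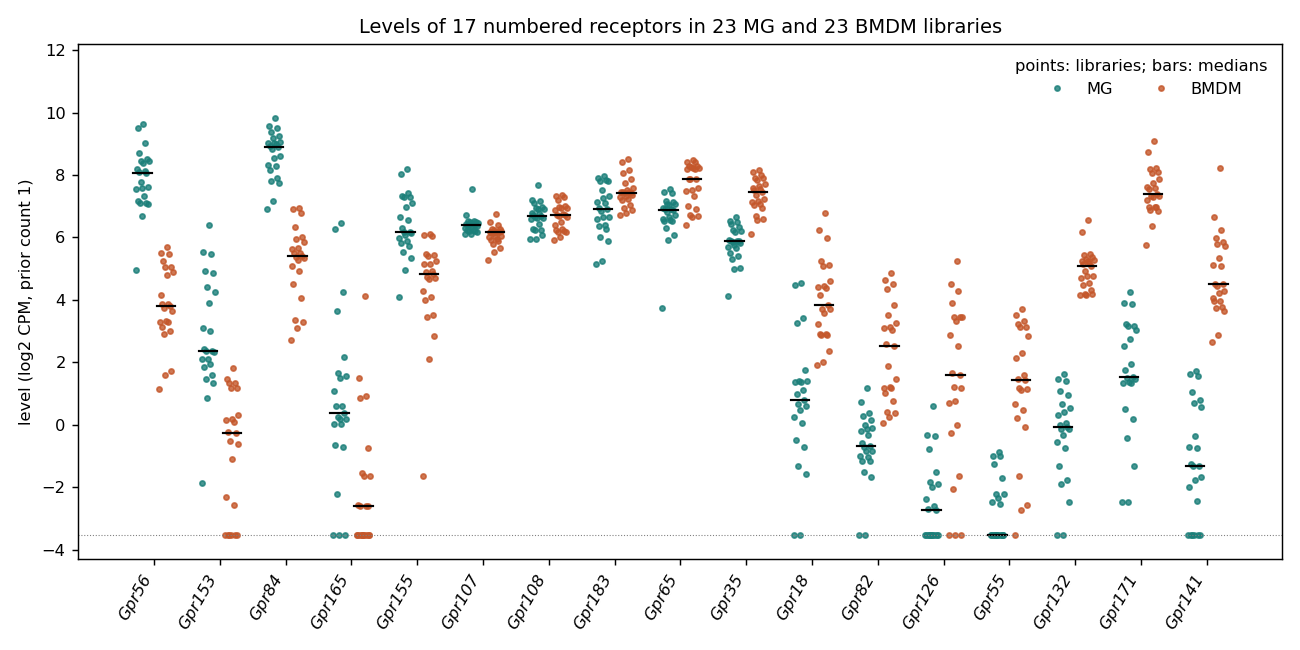
Levels in log2 CPM (vertical axis) of 17 receptors (horizontal axis) in the 23 MG and 23 BMDM libraries; each point is a library, bars are medians, and the dotted line is a count of 0. Gpr132, Gpr141 and Gpr171 show no overlap between populations, while Gpr107 and Gpr108 lie at nearly the same level in both.

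**Figure D2:**
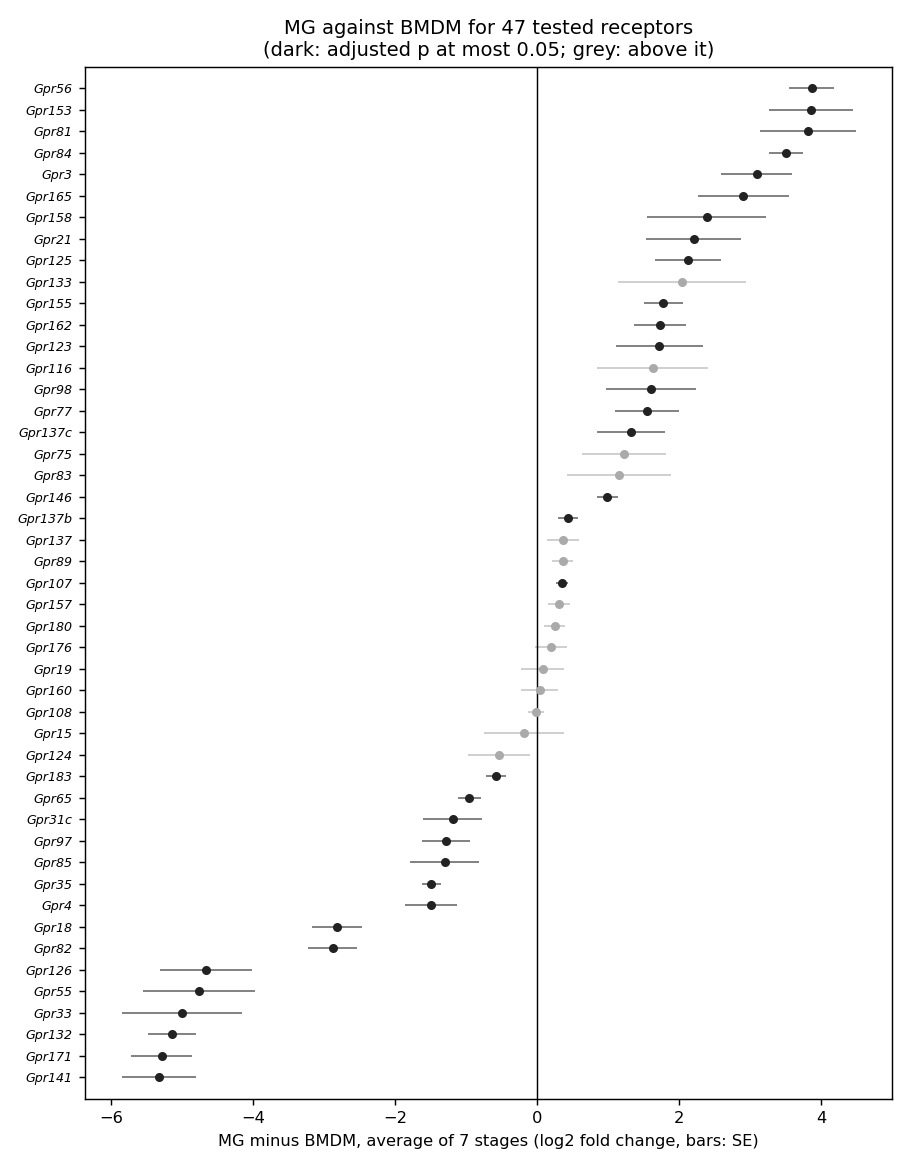
MG minus BMDM averaged over the 7 stages (horizontal axis, log2 fold change, bars are SE) for 47 tested receptors with a finite value; dark points passed an adjusted p of 0.05 and grey points did not. Values of receptors with a group at 0 counts (such as Gpr81 and Gpr55) depend on the fit's prior count; the ends are Gpr56 at 3.87 and Gpr141 at -5.32.

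Some acid sensors were lower in MG than in BMDM. Gpr4, Gpr65 and Gpr132 belong to the family that responds to extracellular protons. These 3 were lower in MG on average, where 15.4% of all genes were lower. Gpr132, known from T cells and macrophages, had a lowest, median and highest level of -3.53, -0.08 and 1.62 in MG and 4.14, 5.10 and 6.55 in BMDM, a log2 fold change of -5.14 ± 0.34, adjusted p = 3.15e-15. In vehicle tumours its libraries read -0.56, -0.08, 0.00 and 0.65 in MG against 4.17, 5.18, 5.27 and 5.47 in BMDM. The ranges of the 2 populations lay apart in all stages. Gpr65, or TDAG8, was abundant in both populations, at 3.74, 6.88 and 7.54 in MG and 6.41, 7.87 and 8.47 in BMDM (-0.95 ± 0.16, adjusted p = 6.63e-06). Gpr4, best known from endothelium, was low in both, at -3.53, -0.10 and 1.74 and -2.42, 1.31 and 4.80 (-1.49 ± 0.37, adjusted p = 0.00134). Its averaged difference did not pass without BMDM of the BLZ945-recurrent mouse 70696 (adjusted p = 0.137).

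Gpr65 fell in BMDM under 5 days of BLZ945. Its BMDM libraries read 8.18, 8.24, 8.30 and 8.42 under vehicle and 6.41, 6.65, 6.70 and 7.0 after BLZ945, with no overlap, a log2 fold change of -1.56 ± 0.26, adjusted p = 0.00256. No single library of the 8 ended this difference when left out (highest adjusted p = 0.00928), and without the libraries that stood apart it was -1.53 (adjusted p = 0.0128). In MG of the same mice it read 6.57, 6.71, 6.88 and 7.44 under vehicle and 6.53, 6.90, 7.03 and 7.54 after BLZ945 (0.17 ± 0.43, adjusted p = 0.914). The difference between the 2 responses was 1.69 ± 0.51, adjusted p = 0.0811 over all 46 libraries. It was 1.66 (adjusted p = 0.0146) without the libraries that stood apart. In BLZ945-recurrent BMDM, Gpr65 stood at 7.53 and 8.23, above every 5-day BLZ945 library (1.23 ± 0.31, adjusted p = 0.0195), a difference that did not pass without either of the 2 recurrent mice 67668 and 70696 (highest adjusted p = 0.282). In these BMDM groups the 6 dendritic cell markers summed to 594 to 950 CPM under vehicle, 1947 to 3418 CPM after 5 days of BLZ945 and 115 to 294 CPM in BLZ945 recurrence, and their part in these results was not tested.

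**Figure D3:**
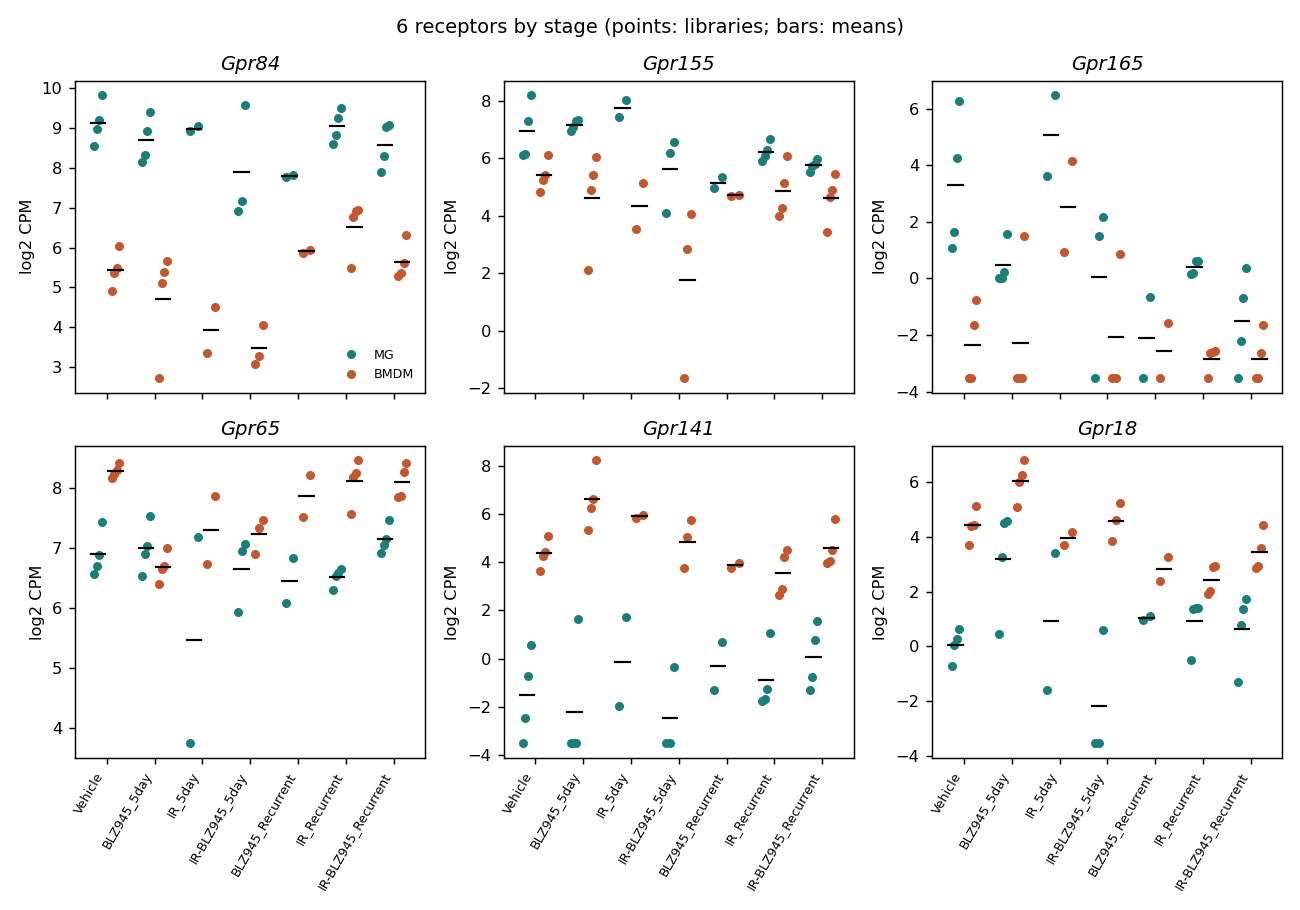
Levels in log2 CPM (vertical axes) of Gpr84, Gpr155, Gpr165, Gpr65, Gpr141 and Gpr18 by stage (horizontal axis) in MG and BMDM; points are libraries and bars group means. In BMDM, Gpr65 dips at 5 days of BLZ945 to 6.41 to 7.0, and in MG the mean of Gpr165 is highest under vehicle and after 5 days of IR.

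Among 9 tested receptors for lipids and metabolites, 2 were higher and 5 lower in MG on average, against 18.2% and 15.4% of all genes. Their median difference was -1.13. Gpr84 held the most counts of the 92 in MG, at 6.92, 8.91 and 9.82 there and 2.72, 5.39 and 6.93 in BMDM (3.51 ± 0.23, adjusted p = 5.03e-15). Its vehicle libraries read 8.55, 8.98, 9.19 and 9.82 in MG and 4.91, 5.35, 5.49 and 6.03 in BMDM, with no overlap. The gap ran from 2.46 ± 0.49 in IR-recurrent tumours to 4.94 ± 0.77 after 5 days of IR among the 6 stages in which it passed. Gpr81, the lactate receptor now called Hcar1, was the other higher one, with 273 counts in all and levels of -3.53, -0.41 and 2.14 in MG against -3.53, -2.74 and 0.36 in BMDM. Its averaged difference did not pass without MG 5-day BLZ945 mouse 65975 and MG 5-day IR-BLZ945 mouse 67537 (highest adjusted p = 1).

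Gpr35, a metabolite receptor of myeloid and gut cells, was at 4.11, 5.89 and 6.64 in MG and 6.10, 7.46 and 8.16 in BMDM (-1.49 ± 0.14, adjusted p = 1.78e-11). Gpr183, also called EBI2, guides cells along gradients of oxysterols and stood at 5.16, 6.92 and 7.98 and 6.73, 7.42 and 8.53 (-0.58 ± 0.14, adjusted p = 0.00134). The ranges of both receptors overlapped between the populations. Gpr18, a lipid receptor of lymphoid and myeloid cells, was at -3.53, 0.78 and 4.55 and 1.92, 3.83 and 6.78 (-2.82 ± 0.35, adjusted p = 2.74e-08), and Gpr55, a lysophospholipid receptor, at -3.53, -3.53 and -0.89 and -3.53, 1.42 and 3.71. In vehicle tumours Gpr55 had 2 counts over 4 MG libraries and 444 over 4 BMDM libraries, a ratio of CPM of 198 (54.4 to 1638) with its exact 95% counting interval. Its average over stages did not pass without BMDM of the 5-day IR mouse 65972 (adjusted p = 1). Gpr31c, annotated as a pseudogene in RefSeq and counted among the 9 above, was lower in MG by a log2 fold change of -1.19 ± 0.41, adjusted p = 0.0225. It did not pass with the mouse as a block (adjusted p = 0.14) or without MG 5-day IR mouse 65972, BMDM BLZ945-recurrent mouse 70696 and BMDM 5-day IR mouse 65972 (highest adjusted p = 1).

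Gpr18 changed with stage in BMDM. It read 3.71, 4.39, 4.41 and 5.12 under vehicle, 5.09, 5.97, 6.25 and 6.78 after 5 days of BLZ945 and 2.37 and 3.24 in BLZ945 recurrence. The fall from 5 days to recurrence had no overlap (-3.26 ± 0.63, adjusted p = 0.00542) and did not pass without BMDM BLZ945-recurrent mouse 67668 (adjusted p = 0.104). Against vehicle, the rise after BLZ945 was 1.68 ± 0.44, adjusted p = 0.0295. It did not pass without the libraries that stood apart (adjusted p = 0.213) or without BMDM 5-day BLZ945 mice 122 and 124 and BMDM vehicle mice 41, 65966 and 65967 (highest adjusted p = 0.0899). IR-recurrent BMDM read 1.92, 2.02, 2.88 and 2.92, all under the vehicle libraries (-1.96 ± 0.45, adjusted p = 0.0279). Without BMDM vehicle mice 41 and 78 and BMDM IR-recurrent mice 68343, 68344, 68345 and 68346 it did not pass (highest adjusted p = 0.11). The dendritic cell markers followed a like course in BMDM, with 54.1 to 105 CPM in IR recurrence, and their part in it was not tested. Gpr183 fell in BMDM from 8.41 and 8.53 after 5 days of IR to 7.29, 7.37, 7.42 and 7.57 in IR recurrence (-1.07 ± 0.26, adjusted p = 0.0119), and did not pass without the 5-day mouse 65698 (adjusted p = 0.0891).

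Gpr84 was higher in BMDM of recurrent tumours than after 5 days of irradiation, and passed in no BMDM comparison with vehicle. Its vehicle BMDM libraries, given above, lay over every library of both 5-day groups and overlapped both recurrent groups. After IR alone its BMDM libraries went from 3.36 and 4.52 to 5.49, 6.77, 6.91 and 6.93 (2.55 ± 0.64, adjusted p = 0.0148). After IR with BLZ945 they went from 3.09, 3.28 and 4.07 to 5.29, 5.36, 5.62 and 6.32 (2.17 ± 0.54, adjusted p = 0.0266). Neither pair of groups overlapped. The first did not pass without BMDM 5-day IR mouse 65698 (adjusted p = 0.195), and the second without BMDM 5-day IR-BLZ945 mice 65696, 65971 and 67537 and BMDM IR-BLZ945-recurrent mice 67169 and 67543 (highest adjusted p = 0.117). Dendritic cell markers in these BMDM summed to 2304 to 2344 CPM after 5 days of IR and 2650 to 3567 CPM after 5 days of IR-BLZ945, against 54.1 to 105 CPM and 140 to 365 CPM in recurrence, and their part was not tested.

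Among relatives of the P2Y nucleotide receptors, Gpr171 was lower in MG, while Gpr17, with groups without counts in both populations, gave no finite average. Gpr171, known from T cells and immune cells and described as a receptor for a proSAAS-derived peptide, was at -2.49, 1.54 and 4.26 in MG and 5.77, 7.39 and 9.08 in BMDM (-5.29 ± 0.43, adjusted p = 5.75e-13). In vehicle tumours it read -0.44, 0.49, 3.03 and 3.91 in MG and 6.84, 8.08, 8.22 and 8.75 in BMDM. Every MG library of the series lay under every BMDM library. In IR-recurrent BMDM it read 5.77, 6.36, 6.89 and 6.96, lower than under vehicle (-1.52 ± 0.37, adjusted p = 0.0376), with overlapping groups. Without BMDM vehicle mice 41, 65966 and 78 and BMDM IR-recurrent mice 68343, 68344, 68345 and 68346 it did not pass (highest adjusted p = 0.132). The 10 T and NK cell markers summed to 23.9 to 285 CPM in vehicle BMDM and 1.26 to 6.86 CPM in IR-recurrent BMDM, and their part was not tested.

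Gpr17, a receptor of oligodendrocyte precursors, was higher in MG libraries of recurrent than of 5-day tumours after each treatment. It read -3.53, -3.53, -3.53 and -0.99 after 5 days of BLZ945 and 1.53 and 4.04 in recurrence (6.49 ± 1.38, adjusted p = 0.00689). After IR both 5-day libraries were at 0 and the recurrent ones at 2.18, 2.54, 2.66 and 2.77, at least 46.1-fold higher when the empty group is set to 3 counts in sum (adjusted p = 0.0159). After IR-BLZ945 the 5-day libraries were again at 0 and the recurrent ones at -2.38, -0.33, 1.68 and 3.24, at least 27.0-fold higher (adjusted p = 0.0094). The first of these did not pass without MG BLZ945-recurrent mouse 70696 (adjusted p = 0.0902) and the second without MG 5-day IR mice 65698 and 65972 (highest adjusted p = 0.124), while the third passed whichever of the 7 libraries was left out. The 10 markers of glioma and oligodendrocyte precursor cells moved with it in these MG libraries: 5.06 to 65.8 CPM, 13.8 to 21.0 CPM and 17.4 to 63.8 CPM at 5 days of BLZ945, IR and IR-BLZ945, and 501 to 939 CPM, 426 to 915 CPM and 113 to 440 CPM in recurrence. Of the same 10 markers, 8, 7 and 6 were higher in recurrent MG after the respective treatments, and their part in the Gpr17 level was not tested.

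Among 13 tested adhesion receptors, 4 were higher and 3 lower in MG on average, against 18.2% and 15.4% of all genes. Their median difference was 0.14. Neighbours of this family went opposite ways. Gpr56 and Gpr97, now Adgrg1 and Adgrg3, lie side by side on the forward strand of chromosome 8, at 94974756 to 95014208 and 95017113 to 95045250 (GRCm38). Their RefSeq promoter sequences (GRCm38.p6, up to 250 bases before the annotated start, without any annotated exon) are shown because the 2 neighbours are split between the populations. Capitals mark GAGGAA, the core letters bound by the macrophage factor PU.1, and TGACTCA, the letters bound by AP-1, on either strand; the 2 motifs do not overlap. Gpr56 has 2 annotated starts, of which the first is shown at chr8:94976859-94976992 and the second at chr8:94984149-94984370; Gpr97 is at chr8:95017442-95017691, all on the + strand.
Gpr56 first start: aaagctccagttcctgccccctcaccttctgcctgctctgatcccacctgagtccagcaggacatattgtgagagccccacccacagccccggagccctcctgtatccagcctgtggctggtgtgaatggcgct
Gpr56 second start: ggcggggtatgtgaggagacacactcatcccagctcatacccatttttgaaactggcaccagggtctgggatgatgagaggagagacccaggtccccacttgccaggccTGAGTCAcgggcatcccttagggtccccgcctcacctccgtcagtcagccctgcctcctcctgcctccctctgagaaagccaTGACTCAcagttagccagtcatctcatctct
Gpr97: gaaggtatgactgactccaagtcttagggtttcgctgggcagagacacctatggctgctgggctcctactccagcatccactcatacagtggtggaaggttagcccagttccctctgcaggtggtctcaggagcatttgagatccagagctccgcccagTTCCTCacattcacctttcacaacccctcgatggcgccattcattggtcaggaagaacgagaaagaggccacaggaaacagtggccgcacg

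The Gpr97 window holds 1 GAGGAA, at 91 bases before the start on the opposite strand, and the second Gpr56 start holds 2 TGACTCA. Over all 32851 promoter windows of 250 bases, 23.3% hold GAGGAA and 4.46% TGACTCA, and over the 85 windows of these receptors 22.4% and 4.71% do. A match of letters is a description and says nothing of binding.

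Gpr56, which binds collagen III and transglutaminase 2, had a lowest, median and highest level of 4.96, 8.05 and 9.63 in MG and 1.13, 3.81 and 5.71 in BMDM (3.87 ± 0.32, adjusted p = 1.05e-12). In vehicle tumours it read 7.07, 8.51, 9.02 and 9.50 in MG and 1.73, 3.73, 4.80 and 5.04 in BMDM, with no overlap. Gpr97, known from granulocytes, was at -1.27, 1.06 and 4.99 and -3.53, 2.77 and 4.39 (-1.28 ± 0.34, adjusted p = 0.00307), and its ranges overlapped. Gpr56 was thus higher in MG, and its neighbour Gpr97 lower. The part of the neutrophil markers in the Gpr97 difference was not tested. Gpr126, or Adgrg6, known from Schwann cells, was at -3.53, -2.72 and 0.60 and -3.53, 1.59 and 5.23 (-4.66 ± 0.64, adjusted p = 1.98e-07), and did not pass without BMDM of the 5-day IR mouse 65972 (adjusted p = 1). Gpr125, or Adgra3, was at 2.22, 3.65 and 5.03 and -3.53, 1.37 and 3.22 (2.13 ± 0.46, adjusted p = 0.000345). Gpr98, or Adgrv1, known from hair cells, and Gpr123 were low in both populations and passed on average (adjusted p = 0.0461 and 0.0266), but neither did with the mouse as a block (adjusted p = 0.144 and 0.144). Gpr98 also failed when any of 27 of the 46 libraries was left out (highest adjusted p = 1). Gpr123 did so without MG 5-day BLZ945 mouse 123, MG 5-day IR-BLZ945 mouse 65971, MG BLZ945-recurrent mouse 70696, MG 5-day IR mouse 65972, BMDM BLZ945-recurrent mouse 70696 and BMDM 5-day IR mouse 65698 (highest adjusted p = 1).

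**Figure D4:**
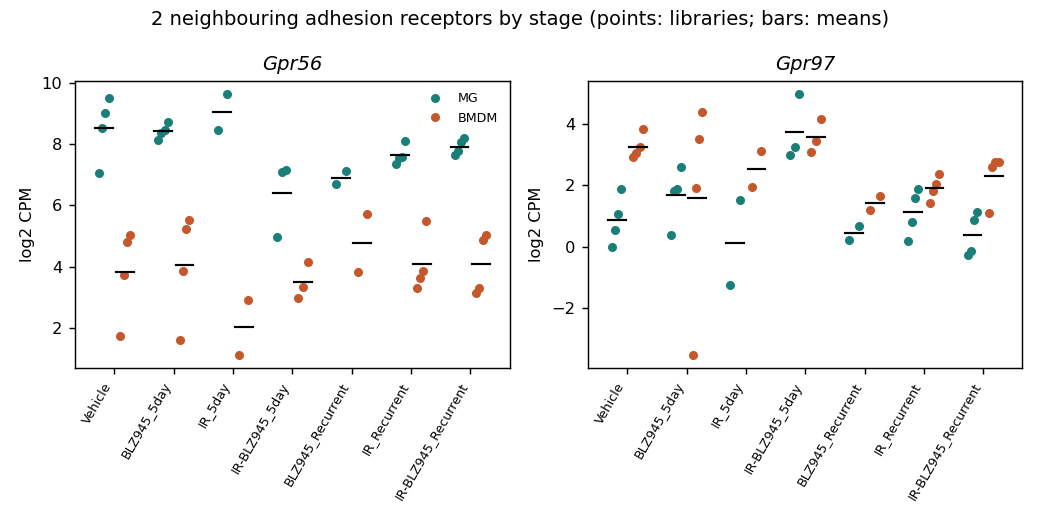
Levels in log2 CPM (vertical axes) of the 2 neighbouring adhesion receptors Gpr56 and Gpr97 by stage (horizontal axes); points are libraries of MG and BMDM and bars are group means. Gpr56 is higher in MG at each stage, and Gpr97 in MG is highest at 5 days of IR-BLZ945, at 3.00, 3.27 and 4.99.

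The same 2 neighbours changed in MG after 5 days of IR-BLZ945. Gpr56 fell from the vehicle values above to 4.96, 7.09 and 7.16 (-1.95 ± 0.46, adjusted p = 0.0132), with overlap. Without MG vehicle mouse 41 it did not pass (adjusted p = 0.052). Gpr97 rose from 0.00, 0.56, 1.06 and 1.90 to 3.00, 3.27 and 4.99, above every vehicle library (3.15 ± 0.73, adjusted p = 0.0127). Gpr97 did not pass without MG 5-day IR-BLZ945 mouse 65971 and MG vehicle mouse 41 (highest adjusted p = 0.0532). In IR-BLZ945-recurrent MG, Gpr97 was lower again at -0.27, -0.15, 0.86 and 1.12 (-3.75 ± 0.76, adjusted p = 0.00238), without overlap and whichever of the 7 libraries was left out. Gpr64, or Adgrg2, known from the epididymis and choroid plexus, read -3.53, -3.53, -2.72 and -1.42 under vehicle, -3.53, 1.19 and 3.65 after 5 days (5.87 ± 1.86, adjusted p = 0.0446) and no count in recurrence, where the 5-day group was at least 31.2-fold higher (adjusted p = 0.0112). Gpr98 read -2.20, -2.09, -0.88 and 0.18, -1.95, 2.81 and 6.05 and -1.35, -0.47, -0.20 and -0.15 in the same order (5.94 ± 1.46, adjusted p = 0.0155 and -5.40 ± 1.43, adjusted p = 0.00982), its spread at 5 days covering both other groups. Against vehicle, Gpr64 and Gpr98 did not pass without MG of mouse 65971, the library of fewest counts, nor without other single libraries (highest adjusted p = 0.211 and 0.158). Gpr125 was lower in recurrence (2.22, 2.89, 3.01 and 3.17) than at 5 days (3.00, 4.17 and 4.78, -1.43 ± 0.48, adjusted p = 0.0324), with overlap, and did not pass without 6 of the 7 libraries (highest adjusted p = 0.16).

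Markers of other cells moved in the same MG libraries of 5-day IR-BLZ945 mice. The 5 choroid plexus markers, all 5 higher than under vehicle, summed to 0.743 to 5.67 CPM under vehicle, 22.3 to 1716 CPM at 5 days and 6.89 to 29.5 CPM in recurrence, where Kl was at 0. The 7 neutrophil markers summed to 0.782 to 34.5 CPM, 85.1 to 201 CPM and 3.45 to 16 CPM. Their part in the changes of Gpr56, Gpr64, Gpr97, Gpr98 and Gpr125, and of Gpr19, Gpr21, Gpr37, Gpr77 and Gpr137b given below for the same libraries, was not tested.

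Of 3 tested relatives of chemoattractant receptors, 1 was higher and 1 lower in MG on average, against 18.2% and 15.4% of all genes. Gpr77, the second complement C5a receptor C5ar2, was at 0.00, 2.51 and 4.72 in MG and -3.53, 1.63 and 3.38 in BMDM (1.55 ± 0.44, adjusted p = 0.00577), which did not pass with 1 common population term (adjusted p = 0.0759). It was 2.67, 3.46 and 4.72 in 5-day IR-BLZ945 MG and 0.00, 1.28, 1.82 and 2.56 in recurrence, without overlap (-2.32 ± 0.62, adjusted p = 0.00999). Without MG 5-day IR-BLZ945 mouse 65971 it did not pass (adjusted p = 0.0574). Gpr33 read -3.53, -3.53 and -0.87 in MG and -3.53, 0.69 and 3.87 in BMDM and was lower in MG on average (adjusted p = 1.36e-05). That difference did not pass without BMDM of mouse 65698 (adjusted p = 1) or without the libraries that stood apart (adjusted p = 1). Gpr15, a homing receptor of T cells, did not pass in any comparison. Gpr3, which raises cAMP without an added ligand, was higher in MG, with 159 counts there and 35 in BMDM (-3.53, -0.60 and 0.63 against -3.53, -2.72 and -0.86, adjusted p = 5.09e-06). After 5 days of BLZ945 Gpr3 had no count in 4 BMDM libraries and was at least 13-fold higher in MG.

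Of 8 tested proteins of inner membranes, 4 were higher and none lower in MG on average, against 18.2% and 15.4% of all genes. Their median difference was 0.38. Gpr155, a cholesterol sensor of the lysosome, was at 4.10, 6.19 and 8.20 in MG and -1.66, 4.83 and 6.11 in BMDM (1.78 ± 0.28, adjusted p = 2.58e-06). The Golgi protein Gpr107 differed by 0.35 ± 0.09, at 6.10, 6.39 and 7.56 against 5.28, 6.16 and 6.75, a small shift within overlapping ranges (adjusted p = 0.00204). Its relative Gpr108 was at 5.95, 6.69 and 7.67 and 5.91, 6.71 and 7.35 and did not pass (-0.02 ± 0.11, adjusted p = 1). The lysosomal Gpr137b (0.43 ± 0.14, adjusted p = 0.0156) and its relative Gpr137c (adjusted p = 0.0295) were the other 2. Gpr137b did not pass without the libraries that stood apart (adjusted p = 0.0604) or without MG BLZ945-recurrent mouse 70696, MG 5-day IR mouse 65698 and BMDM 5-day IR mouse 65698 (highest adjusted p = 0.0652). Gpr137c failed without MG 5-day IR-BLZ945 mouse 65696, MG BLZ945-recurrent mouse 70696, MG 5-day IR mouse 65972, BMDM BLZ945-recurrent mouse 67668 and BMDM 5-day IR mice 65698 and 65972 (highest adjusted p = 0.124). Gpr89, Gpr137 and Gpr180 did not pass in any comparison.

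Gpr155 was lower in MG of tumours recurrent after BLZ945 and IR-BLZ945 than under vehicle. It read 6.13, 6.17, 7.30 and 8.20 under vehicle, 4.97 and 5.34 in BLZ945 recurrence (-1.97 ± 0.54, adjusted p = 0.0432 against vehicle) and 5.52, 5.74, 5.82 and 5.97 in IR-BLZ945 recurrence (-1.43 ± 0.40, adjusted p = 0.0437). Against 5 days, it fell from 6.96, 7.10, 7.29 and 7.32 after BLZ945 (-2.03 ± 0.54, adjusted p = 0.0219), and from 7.44 and 8.04 to 5.90, 6.07, 6.29 and 6.67 after IR (-1.43 ± 0.47, adjusted p = 0.0497). None of these 4 comparisons had overlapping groups. Against vehicle, the IR-recurrent libraries overlapped and did not pass (-0.83 ± 0.40, adjusted p = 0.396). Each did not pass without some single libraries: those against vehicle without MG BLZ945-recurrent mice 67668 and 70696 and MG vehicle mice 41 and 65967 and without MG IR-BLZ945-recurrent mice 67169, 67543, 67947 and 68362 and MG vehicle mice 41 and 65967, those against 5 days without MG BLZ945-recurrent mice 67668 and 70696 and without MG 5-day IR mice 65698 and 65972 and MG IR-recurrent mice 68343, 68345 and 68346, with highest adjusted p of 0.274, 0.259, 0.147 and 0.294. In the same MG, Gpr137b was 5.36, 5.36, 5.64 and 5.86 under vehicle, 6.33, 6.52 and 6.54 after 5 days of IR-BLZ945 (1.01 ± 0.29, adjusted p = 0.0267) and 4.60, 4.98, 5.08 and 5.15 in recurrence (-1.63 ± 0.29, adjusted p = 0.00108 against 5 days). Its groups did not overlap, the fall passed whichever library was left out, and the rise did not pass without MG vehicle mice 41, 65966 and 78 (highest adjusted p = 0.08). In these MG libraries the 12 microglia markers summed to 17843 to 38218 CPM under vehicle, 13996 to 24300 CPM and 24425 to 35291 CPM after 5 days of BLZ945 and IR, and 8684 to 13983 CPM, 14879 to 20327 CPM and 16501 to 24554 CPM in the BLZ945-, IR- and IR-BLZ945-recurrent tumours. The 10 glioma and precursor markers summed to 60.7 to 104 CPM under vehicle, against the higher recurrent sums given above. Lars2 moved with recurrence too, and the part of these genes in the Gpr155 and Gpr137b levels was not tested.

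Of 2 tested class C receptors, Gpr158, a glycine receptor of neurons, was higher in MG and Gpr179 gave no finite average. Gpr158 had 157 counts in all and did not pass with the mouse as a block (adjusted p = 0.0715), by DESeq2 (adjusted p = 0.0534) or without MG 5-day BLZ945 mouse 123, MG BLZ945-recurrent mouse 70696, BMDM BLZ945-recurrent mice 67668 and 70696 and BMDM 5-day IR mice 65698 and 65972 (highest adjusted p = 1).

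Of 20 tested receptors outside these families, 6 were higher and 3 lower in MG on average, against 18.2% and 15.4% of all genes. Their median difference was 0.46. Gpr141, an orphan receptor of myeloid cells, was at -3.53, -1.31 and 1.73 in MG and 2.65, 4.50 and 8.24 in BMDM (-5.32 ± 0.52, adjusted p = 7.2e-11), and in vehicle tumours at -3.53, -2.46, -0.72 and 0.58 and 3.64, 4.28, 4.44 and 5.11. Gpr82, an orphan within the X-linked gene Cask, was at -3.53, -0.67 and 1.19 and 0.04, 2.52 and 4.87 (-2.88 ± 0.35, adjusted p = 1.31e-08). Every MG library was below every BMDM library for Gpr141, and ranges of Gpr82 overlapped. The third, Gpr85, was low (-1.30 ± 0.49, adjusted p = 0.0364) and did not pass with the mouse as a block (adjusted p = 0.112) or without MG BLZ945-recurrent mice 67668 and 70696, MG 5-day IR mouse 65698, BMDM 5-day BLZ945 mouse 65975, BMDM BLZ945-recurrent mice 67668 and 70696, BMDM IR-BLZ945-recurrent mouse 68362, BMDM vehicle mouse 65967, BMDM 5-day IR mouse 65972 and BMDM IR-recurrent mouse 68345 (highest adjusted p = 1). Gpr153 was at -1.87, 2.37 and 6.41 in MG and -3.53, -0.26 and 1.82 in BMDM (3.86 ± 0.59, adjusted p = 1.44e-06), and Gpr165 at -3.53, 0.38 and 6.47 and -3.53, -2.62 and 4.13 (2.90 ± 0.64, adjusted p = 0.000419). Gpr165 did not pass on average without MG BLZ945-recurrent mouse 70696 (adjusted p = 1). Gpr146 (0.99 ± 0.14, adjusted p = 4.92e-07), Gpr162 (1.73 ± 0.36, adjusted p = 0.000207) and Gpr21 (adjusted p = 0.0104) were higher in MG too. Gpr21 had 93 counts in all and did not pass with the mouse as a block (adjusted p = 0.0534), by DESeq2 (adjusted p = 0.0516) or without MG IR-BLZ945-recurrent mouse 68362 (adjusted p = 1).

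The promoters of Gpr141, which read near 0 counts in many MG libraries, and Gpr65, which both populations carried, are shown for contrast. They lie at chr13:19824258-19824507 on the - strand and chr12:98268385-98268634 on the + strand, with capitals as before. Gpr65 holds 1 GAGGAA, 48 bases before its start, and Gpr141 holds neither motif.
Gpr141: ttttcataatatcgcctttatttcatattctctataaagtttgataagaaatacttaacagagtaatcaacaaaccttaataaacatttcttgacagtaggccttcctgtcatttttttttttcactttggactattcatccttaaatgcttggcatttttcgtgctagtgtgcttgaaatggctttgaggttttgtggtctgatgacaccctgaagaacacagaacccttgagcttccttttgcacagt
Gpr65: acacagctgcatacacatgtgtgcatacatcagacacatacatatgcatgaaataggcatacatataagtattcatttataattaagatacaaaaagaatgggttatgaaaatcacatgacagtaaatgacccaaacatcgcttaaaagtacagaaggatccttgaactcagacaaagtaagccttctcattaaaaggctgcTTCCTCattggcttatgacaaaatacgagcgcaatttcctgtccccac

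Gpr165 was lower in MG of recurrent tumours than under vehicle. Its MG libraries read 1.07, 1.65, 4.25 and 6.28 under vehicle, -3.53 and -0.66 in BLZ945 recurrence, 0.17, 0.19, 0.60 and 0.61 in IR recurrence and -3.53, -2.21, -0.70 and 0.38 in IR-BLZ945 recurrence. All 10 recurrent libraries lay under all 4 vehicle libraries, which themselves differed widely. The log2 fold changes against vehicle were -6.24 ± 1.69, adjusted p = 0.0429, -4.18 ± 1.08, adjusted p = 0.0273 and -5.67 ± 1.19, adjusted p = 0.0144. They did not pass without MG BLZ945-recurrent mice 67668 and 70696 and MG vehicle mice 41 and 65967 in the first, MG vehicle mice 41 and 65967 and MG IR-recurrent mice 68343, 68344, 68345 and 68346 in the second and MG IR-BLZ945-recurrent mice 67543 and 67947 and MG vehicle mouse 65967 in the third, with highest adjusted p of 0.292, 0.236 and 0.0723. After 5 days of BLZ945, MG of mouse 65975 read 1.56 and the others 0.03 to 0.24, the latter under every vehicle library. That group did not pass against vehicle, and low levels were thus not particular to recurrence. After 5 days of IR the MG libraries read 3.63 and 6.47, above those of IR recurrence (-5.20 ± 1.19, adjusted p = 0.00777). Without MG 5-day IR mouse 65972 it did not pass (adjusted p = 0.181). In BMDM, Gpr165 was 0.93 and 4.13 after 5 days of IR and -3.53, -2.62, -2.60 and -2.58 in IR recurrence, a ratio of CPM of 179 (60.5 to 875) with its exact 95% counting interval (adjusted p = 0.0427). The call ended when any of the 6 libraries was left out (highest adjusted p = 0.222). In BMDM, 6 markers of border-associated macrophages summed to 82.7 to 517 CPM under vehicle, 1680 to 2761 CPM after 5 days of IR and 152 to 478 CPM in IR recurrence, and the dendritic cell markers moved there as given above. Lars2 lay at 6.15 to 13.87 in vehicle MG. The part of Lars2, of these lists, of the microglia and glioma markers and of sex in the levels of the X-linked Gpr165 was not tested.

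Gpr141 and Gpr82 changed with stage in BMDM. Gpr141 rose from the vehicle values above to 5.35, 6.24, 6.64 and 8.24 after 5 days of BLZ945 (2.59 ± 0.59, adjusted p = 0.014) and read 3.77 and 3.97 in BLZ945 recurrence (-3.13 ± 0.81, adjusted p = 0.0243 against 5 days). Neither passed without the libraries that stood apart (adjusted p = 0.188 and 0.102), nor the rise without BMDM 5-day BLZ945 mouse 122 or the fall without BMDM 5-day BLZ945 mouse 122 and BMDM BLZ945-recurrent mice 67668 and 70696 (highest adjusted p = 0.0652 and 0.213). After IR it went from 5.84 and 5.97 to 2.65, 2.88, 4.23 and 4.50 in recurrence (-2.14 ± 0.66, adjusted p = 0.0377). Without BMDM 5-day IR mice 65698 and 65972 and BMDM IR-recurrent mice 68344, 68345 and 68346 it did not pass (highest adjusted p = 0.178). Gpr82 read 2.52, 2.59, 3.50 and 3.83 under vehicle, 4.36, 4.50, 4.63 and 4.87 after 5 days of BLZ945, 0.24 and 0.76 in BLZ945 recurrence and 0.04, 0.38, 1.00 and 1.45 in IR recurrence. Its fall from 5 days of BLZ945 to recurrence was -4.13 ± 0.91, adjusted p = 0.0106, lost without BMDM BLZ945-recurrent mice 67668 and 70696 (highest adjusted p = 0.149), and that from vehicle to IR recurrence -2.42 ± 0.62, adjusted p = 0.048. Without any 1 of the 8 libraries the latter did not pass (highest adjusted p = 0.164). The groups of each of these 5 comparisons did not overlap, and the dendritic cell markers given above moved in the same libraries. The part of these markers and of sex was not tested.

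Within stages the split between the populations was found at 6 of 7. Of 63 tested receptors, 16 (5 higher and 11 lower in MG, against 9.14% of all genes, 3.84% higher and 5.3% lower) differed in vehicle tumours. After 5 days the numbers were 26 (12 higher and 14 lower in MG, against 21.8% of all genes, 11.6% higher and 10.3% lower) for BLZ945, 10 (4 higher and 6 lower in MG, against 9.09% of all genes, 4.96% higher and 4.13% lower) for IR and 19 (7 higher and 12 lower in MG, against 12.8% of all genes, 5.68% higher and 7.11% lower) for IR-BLZ945. In recurrence they were 8 (2 higher and 6 lower in MG, against 1.91% of all genes, 0.547% higher and 1.36% lower) for IR and 12 (3 higher and 9 lower in MG, against 4.41% of all genes, 1.64% higher and 2.77% lower) for IR-BLZ945. In BLZ945 recurrence, with 2 mice, 0 passed by edgeR where 0.0818% of all genes did, 13 had an unadjusted p under 0.05 and DESeq2 gave 2. Gpr56 and Gpr84 were higher in MG, and Gpr132, Gpr141 and Gpr171 lower, in each of the other 6 stages. For Gpr56, Gpr84 and Gpr132 this held whichever single library was left out. After 5 days of IR, Gpr141 did not pass without MG 5-day IR mouse 65972 and BMDM 5-day IR mouse 65698 and Gpr171 without MG 5-day IR mouse 65972 (highest adjusted p = 0.301 and 0.0979). In IR recurrence, Gpr141 did not pass without MG IR-recurrent mice 68344, 68345 and 68346 and BMDM IR-recurrent mice 68343 and 68345 (highest adjusted p = 0.117). Gpr35 was lower in MG in 5 of them, and Gpr18 in 4. Receptors that passed within 1 or 2 stages only and not on average were Gpr30, Gpr62, Gpr174 and Gpr176 after 5 days of BLZ945 and Gpr44, the prostaglandin D2 receptor Ptgdr2, after 5 days of IR-BLZ945, all 5 with a group of at most 1 count. Leaving out MG of mouse 65972 brought the 10 calls after 5 days of IR to 4, and leaving out BMDM of mouse 65698 to 6. The 16 calls under vehicle were 25 without the libraries that stood apart. After 5 days of BLZ945, Gpr77 was 2.39, 4.31, 4.41 and 4.53 in MG and -3.53, -2.54, -2.39 and 1.48 in BMDM (4.50 ± 1.13, adjusted p = 0.00297). Gpr162 was 2.40, 2.79, 3.22 and 3.36 and -3.53, -2.54, -0.46 and 1.46 (3.21 ± 0.87, adjusted p = 0.00605). Neither pair of groups overlapped.

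The libraries of these 5 receptors, beyond the vehicle values above, show how far the populations lay apart within each stage. Gpr56 in MG read 8.14, 8.37, 8.46 and 8.71 after 5 days of BLZ945, 8.46 and 9.63 after IR and 4.96, 7.09 and 7.16 after both. Recurrent MG read 6.68 and 7.11 after BLZ945, 7.34, 7.55, 7.57 and 8.10 after IR and 7.63, 7.78, 8.05 and 8.19 after both. In BMDM it read 1.59, 3.87, 5.24 and 5.51 after 5 days of BLZ945, 1.13 and 2.92 after IR and 2.99, 3.33 and 4.15 after both. Recurrent BMDM read 3.81 and 5.71 after BLZ945, 3.30, 3.63, 3.87 and 5.48 after IR and 3.14, 3.29, 4.88 and 5.04 after both. The lowest MG library of each stage was above the highest BMDM library of that stage. Gpr84 in MG read 8.15, 8.32, 8.91 and 9.39 after 5 days of BLZ945, 8.93 and 9.04 after IR and 6.92, 7.17 and 9.57 after both. Recurrent MG read 7.76 and 7.82 after BLZ945, 8.60, 8.83, 9.24 and 9.50 after IR and 7.90, 8.29, 9.03 and 9.07 after both. In BMDM it read 2.72, 5.10, 5.39 and 5.67 after 5 days of BLZ945 and 5.86 and 5.95 in BLZ945 recurrence, beside the values after IR and IR-BLZ945 given above. MG was again above BMDM in each stage without overlap.

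Gpr132 in MG read -2.47, -1.89, -1.33 and -0.14 after 5 days of BLZ945, -3.53 and -0.13 after IR and -3.53, 0.05 and 1.39 after both. Recurrent MG read 0.42 and 0.94 after BLZ945, -1.76, -0.32, 0.53 and 1.47 after IR and -0.75, 0.32, 1.08 and 1.62 after both. In BMDM it read 4.20, 5.24, 5.31 and 6.18 after 5 days of BLZ945, 4.14 and 5.14 after IR and 4.93, 5.43 and 6.55 after both. Recurrent BMDM read 4.70 and 5.24 after BLZ945, 4.18, 4.33, 4.54 and 4.75 after IR and 4.48, 4.76, 5.10 and 5.38 after both. No MG library reached the lowest BMDM library of 4.14.

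Gpr141 in MG read -3.53, -3.53, -3.53 and 1.64 after 5 days of BLZ945, -1.99 and 1.73 after IR and -3.53, -3.53 and -0.37 after both. Recurrent MG read -1.32 and 0.68 after BLZ945, -1.76, -1.68, -1.27 and 1.06 after IR and -1.31, -0.75, 0.78 and 1.56 after both. In BMDM, beside the values given above, it read 3.75, 5.07 and 5.74 after 5 days of IR-BLZ945 and 3.95, 4.07, 4.52 and 5.78 in recurrence after both. The highest MG library, at 1.73, was under the lowest BMDM library, at 2.65. Gpr171 in MG read -2.49, -2.47, -1.33 and 3.17 after 5 days of BLZ945, 1.35 and 1.50 after IR and 1.34, 1.45 and 2.53 after both. Recurrent MG read 1.54 and 3.88 after BLZ945, 0.17, 1.37, 1.95 and 3.17 after IR and 1.74, 2.76, 3.22 and 4.26 after both. In BMDM it read 7.30, 7.58, 8.11 and 8.19 after 5 days of BLZ945, 6.96 and 6.96 after IR and 7.34, 7.88 and 9.08 after both, 7.20 and 7.34 in BLZ945 recurrence and 7.39, 7.55, 7.63 and 7.75 in IR-BLZ945 recurrence. The T and NK cell markers summed to 110 to 138 CPM in BMDM after 5 days of IR-BLZ945 and 5.66 to 98.7 CPM in its recurrence, and their part in the Gpr171 level was not tested.

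**Figure D5:**
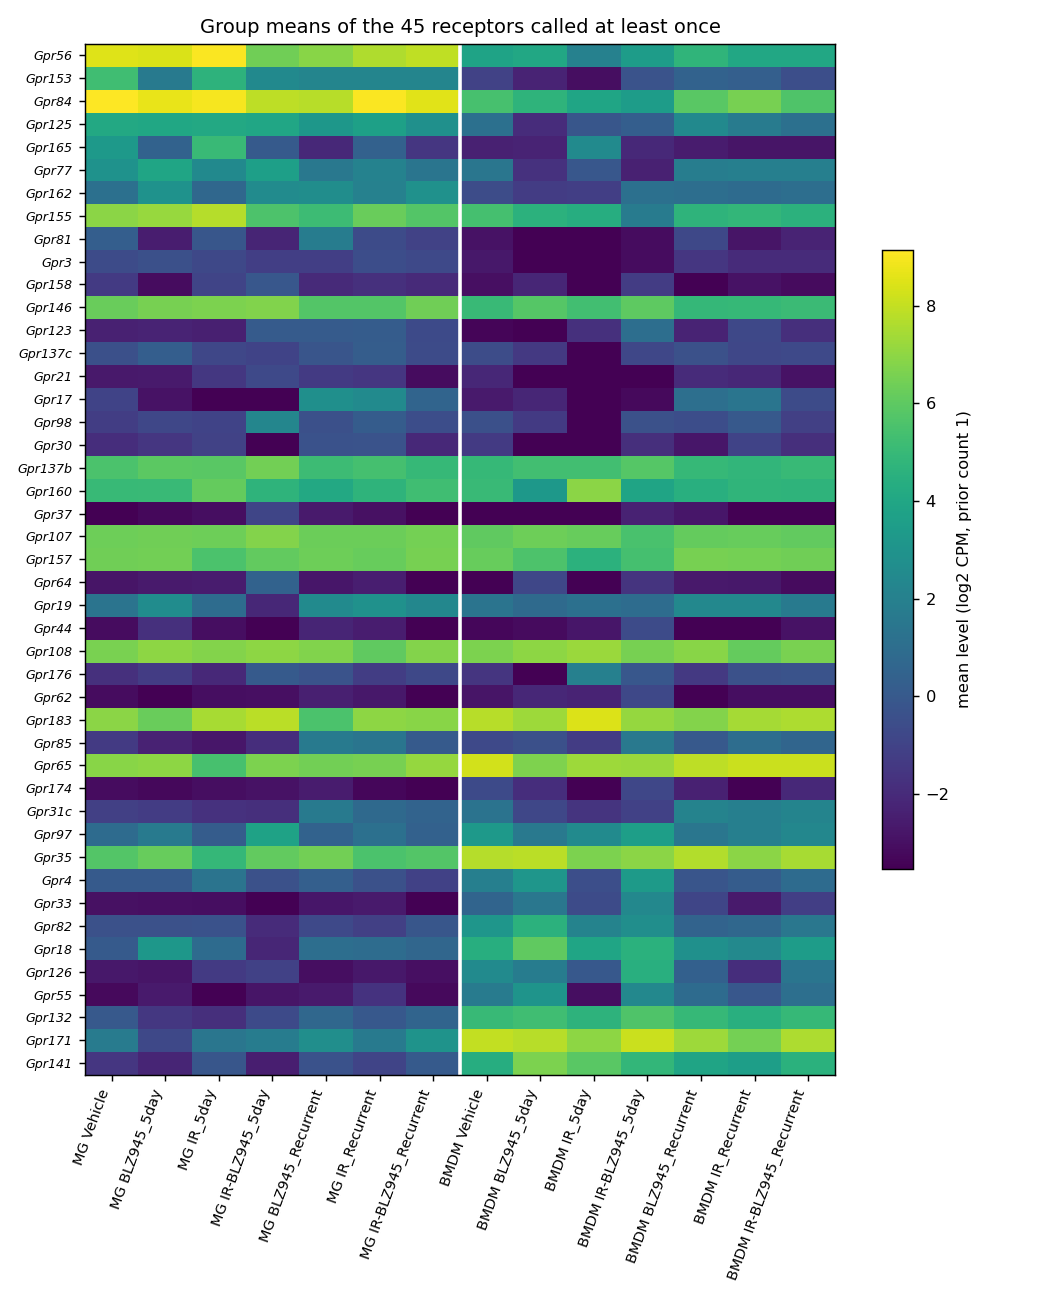
Mean level in log2 CPM (colour) of 45 receptors that passed in at least 1 comparison (vertical axis) in the 14 groups of population and stage (horizontal axis); the white line separates MG from BMDM. Gpr84 and Gpr56 are brightest in MG, and Gpr171, Gpr65, Gpr35 and Gpr183 in BMDM.

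Between the populations within stages, 20.6% of the receptor tests passed and 8.47% of those of all genes. In sum, the comparisons with vehicle gave smaller shares of both. Recurrent against 5-day MG gave 13.5% of the receptor tests and 15.9% of those of all genes, the latter a larger share than between the populations. In BMDM recurrent against 5-day gave 7.55% and 7.69%. Over the 6 comparisons with vehicle, 4.17% of the receptor tests in MG passed and 4.74% of those of all genes, and in BMDM 2.20% and 1.51%. Against vehicle, of 52 tested in MG, 0 passed by edgeR after 5 days of BLZ945 (0.303% of all genes, 0.206% up and 0.0963% down) and 0 after IR (1.99%), with 5 and 4 at an unadjusted p under 0.05 and 2 and 0 by DESeq2. The number was 8 (13.4% of all genes, 9.55% up and 3.89% down) after 5 days of IR-BLZ945, among which Gpr37, Gpr64, Gpr97, Gpr98 and Gpr137b rose and Gpr56 fell. In recurrence it was 2 (3.53% of all genes, 2.97% up and 0.557% down) after BLZ945, 1 (4.33% of all genes, 4.2% up and 0.138% down) after IR and 2 (4.82% of all genes, 2.04% up and 2.78% down) after IR-BLZ945, all of them falls of Gpr155 or Gpr165. Recurrent against 5-day MG gave 4 (8.24% of all genes, 6.32% up and 1.92% down) for BLZ945, 5 (11.6% of all genes, 8.13% up and 3.43% down) for IR and 12 (28.1% of all genes, 11.5% up and 16.6% down) for IR-BLZ945. In BMDM, of 53 tested, 3 (5.51% of all genes, 1.95% up and 3.56% down) passed against vehicle after 5 days of BLZ945, 1 (1.07% of all genes, 0.35% up and 0.721% down) after IR and 3 (1.87% of all genes, 0.844% up and 1.02% down) in IR recurrence. After 5 days of IR-BLZ945 and in BLZ945 and IR-BLZ945 recurrence 0 passed by edgeR (0.57%, 0% and 0.0275% of all genes), with 15, 4 and 2 at an unadjusted p under 0.05 and 3, 2 and 0 by DESeq2. Recurrent against 5-day BMDM gave 5 (6.82% of all genes, 5.17% up and 1.65% down), 6 (12.5% of all genes, 7.06% up and 5.48% down) and 1 (3.69% of all genes, 1.78% up and 1.92% down) for BLZ945, IR and IR-BLZ945. A total of 15 tested receptors passed in none of the 32 comparisons by edgeR, among them Gpr15, Gpr22, Gpr75, Gpr83, Gpr89, Gpr116, Gpr124, Gpr128, Gpr133, Gpr137, Gpr173, Gpr179 and Gpr180. Over the 6 comparisons with vehicle, the 13 calls in MG (6 higher and 7 lower) went down to 1 without vehicle mouse 41 and up to 23 without 5-day BLZ945 mouse 65975, and were 15 (9 higher and 6 lower) with other size factors. The 7 calls in BMDM went from 2 without vehicle mouse 41 to 14 without 5-day IR mouse 65972. Recurrent against 5-day BMDM gave 12 calls, from 6 without BLZ945-recurrent mouse 67668 to 17 without 5-day BLZ945 mouse 65975, and MG gave 21, from 15 to 26. Single comparisons moved more. In MG, the 8 calls after 5 days of IR-BLZ945 ran from 0 without vehicle mouse 41 to 13 without 5-day mouse 65696 or 67537, and were 2 or 3 without vehicle mice 65966 or 78 or 5-day mouse 65971. For recurrent against 5-day MG after BLZ945, the 4 calls fell to 1 without either recurrent mouse and to 2 without 5-day mouse 122 or 124, and were 7 without 5-day mouse 65975. After IR the 5 fell to 0 without 5-day mouse 65972, to 2 without recurrent mouse 68343 or 68346 and to 3 without 68345. In BMDM, the 3 calls after 5 days of BLZ945 were 1 without 5-day mouse 122 and 8 without 5-day mouse 65975. The 1 after 5 days of IR was 5 without 5-day mouse 65972 and 2 without vehicle mouse 65967. The 3 in IR recurrence fell to 0 without vehicle mouse 41 or 78 or any 1 of the 4 recurrent mice, and to 1 without vehicle mouse 65966. For recurrent against 5-day BMDM after BLZ945, the 5 calls fell to 0 without recurrent mouse 67668 and to 1 without 70696. After IR the 6 fell to 2 without 5-day mouse 65698 or recurrent mouse 68346 and to 3 without recurrent mouse 68343 or 68344.

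Other receptors of these counts are given by their libraries. In MG of IR-BLZ945 mice, Gpr37, of oligodendrocytes and known as a parkin substrate, had counts in 2 of 3 libraries at 5 days and none under vehicle or in recurrence, at least 11.3-fold and 7.66-fold lower there (adjusted p = 0.0322 and 0.0244). Neither passed without the libraries that stood apart (adjusted p = 0.0928 and 0.0657) or without any 1 library of vehicle or recurrent MG (highest adjusted p = 0.0922 and 0.0552). Gpr37 had 33 counts over all 46 libraries and may have passed the low-count filter only through this 5-day group. The same may hold for Gpr64 above and Gpr21 below, so these calls are not independent of the filter. The 6 oligodendrocyte markers summed to 121 to 177 CPM in vehicle MG, 250 to 559 CPM at 5 days and 202 to 263 CPM in recurrence, and their part was not tested. Gpr19 rose from -3.53, -3.53 and 0.63 at 5 days to 2.12, 2.25, 2.40 and 2.65 in recurrence (2.99 ± 0.78, adjusted p = 0.00881) and passed whichever library was left out. Gpr21 had 18 counts at 5 days and 2 in recurrence, a ratio of CPM of 13.8 (3.30 to 123) with its exact 95% counting interval (adjusted p = 0.0436). Without MG IR-BLZ945-recurrent mice 67169, 67543 and 67947 it did not pass (highest adjusted p = 0.108). The brain receptor Gpr85 rose in recurrent MG after BLZ945, from -3.53, -2.49, -1.87 and -1.33 to 1.30 and 1.97 (4.32 ± 1.16, adjusted p = 0.0233), and after IR, from -3.53 and -1.99 to 0.73, 0.97, 1.74 and 2.12, a ratio of CPM of 35.6 (9.67 to 297). The first was lost without MG 5-day BLZ945 mice 122 and 124 and MG BLZ945-recurrent mice 67668 and 70696 and the second without any 1 of the 6 libraries (highest adjusted p = 0.105 and 0.238). The glioma markers given above moved in the same libraries and their part was not tested. Gpr31c rose in BLZ945-recurrent MG from -1.46, -1.44, -1.33 and -0.88 to 1.48 and 1.85 (3.19 ± 0.97, adjusted p = 0.0445). Without any 1 of the 6 libraries it did not pass (highest adjusted p = 0.165). Gpr160 fell in IR-recurrent MG from 6.13 and 6.20 to 4.60, 4.67, 4.72 and 4.83 (-1.39 ± 0.39, adjusted p = 0.026). Without MG 5-day IR mice 65698 and 65972 and MG IR-recurrent mice 68343 and 68346 it did not pass (highest adjusted p = 0.13).

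In IR-recurrent BMDM, Gpr157 was 6.12, 6.33, 6.43 and 7.12 against 3.78 and 5.40 at 5 days (1.71 ± 0.52, adjusted p = 0.0351), and Gpr108 5.91, 6.17, 6.20 and 6.39 against 7.21 and 7.29 (-1.10 ± 0.31, adjusted p = 0.0249). Neither pair of groups overlapped, and neither passed without the libraries that stood apart (adjusted p = 0.19 and 0.0782). Leaving out single libraries ended the first without BMDM 5-day IR mouse 65698 and BMDM IR-recurrent mice 68343, 68344 and 68346 and the second without BMDM 5-day IR mice 65698 and 65972 and BMDM IR-recurrent mice 68343 and 68346 (highest adjusted p = 0.357 and 0.139). Gpr55 in BMDM was -2.72, 3.12, 3.12 and 3.53 under vehicle and -3.53 and -2.56 after 5 days of IR, a ratio of CPM of 163 (29.1 to 6451) (adjusted p = 0.0462), with 1 vehicle library below a treated one. Without BMDM vehicle mice 41, 65966 and 78 and BMDM 5-day IR mouse 65698 it did not pass (highest adjusted p = 0.37). The border-associated macrophage and dendritic cell markers given above moved in these BMDM libraries, also for the IR comparisons of Gpr84, Gpr141 and Gpr183, and their part was not tested.

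Whether MG and BMDM differed in their response was tested directly. By edgeR 0 of 63 receptors passed in each of the 6 comparisons of responses against vehicle, where 1.65%, 0.0755%, 0.358%, 0%, 0.0189% and 0% of all genes did for 5-day BLZ945, IR and IR-BLZ945 and recurrence after BLZ945, IR and IR-BLZ945. At an unadjusted p under 0.05 there were 12, 8, 13, 2, 5 and 0, and DESeq2 gave 1, 1, 2, 0, 1 and 0. The DESeq2 calls were Gpr65 after 5 days of BLZ945, Gpr174 after 5 days of IR and in IR recurrence, and Gpr77 and Gpr107 after 5 days of IR-BLZ945; Gpr174 had groups without counts. For Gpr107 the libraries read 6.36, 6.39 and 7.56 in MG and 5.28, 5.54 and 5.67 in BMDM after 5 days of IR-BLZ945 (1.38 ± 0.24, adjusted p = 0.000137 by edgeR) and 6.25, 6.29, 6.45 and 6.45 and 5.93, 5.96, 6.01 and 6.22 under vehicle.

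Partners of these receptors were read from lists of the same pathway. Averaged over stages, 5 of 13 tested G protein alpha subunits were higher and 3 lower in MG, 0 and 3 of 9 receptor kinases and arrestins, 5 and 4 of 17 regulators of G protein signalling, 1 and 2 of 4 enzymes of the oxysterol ligands of Gpr183, and 0 and 1 of the 2 described ligands of Gpr56, where 18.2% of all genes were higher and 15.4% lower. Their median differences were 0.15, -0.16, 0.16, -0.78 and -0.07. The 4 of smallest p were Rgs18, a regulator of platelets and myeloid cells (-4.97 ± 0.41, adjusted p = 1.18e-12), the receptor kinase Grk6 (-1.44 ± 0.13, adjusted p = 5.12e-12), Rgs10, known from microglia (1.10 ± 0.12, adjusted p = 1.41e-09), and Rgs14 (-1.77 ± 0.22, adjusted p = 3.1e-08). With stage, the receptor kinase gene Adrbk2 was lower in recurrence than at 5 days after each treatment in both populations, in MG after IR-BLZ945 with a log2 fold change of -2.27 ± 0.35, adjusted p = 0.000501. The Gpr56 ligand gene Tgm2 was higher in BLZ945-recurrent than in 5-day MG (2.74 ± 0.41, adjusted p = 0.000362). Rgs18 and Cyp27a1, an oxysterol enzyme, were lower in recurrent BMDM after IR (-5.32 ± 0.73, adjusted p = 0.000142 and -2.50 ± 0.33, adjusted p = 0.000104).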

How the data were processed

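RNA was sequenced from MG and BMDM sorted from the gliomas of 23 mice, in 46 libraries made with a Smart-Seq kit and without molecular identifiers. The deposited table holds raw counts of reads per gene symbol for the mm10 build, and the submitters' processing notes name CASAVA 1.8, STAR 2.5.0e, HTSeq and DESeq2 without their settings. Depth was 3007379 to 16993474 counts per library; intervals and the floor of 3 counts cover counting error only. Counts were fitted with edgeR 4.0.16 (TMM scaling, filterByExpr at 10 counts and a total of 15, robust quasi-likelihood F test) in R 4.3.3 with limma 3.58.1, in 1 fit of all 46 libraries (15901 genes) for comparisons of the populations and 1 fit each for MG (14534 genes) and BMDM (14568 genes), with p-values adjusted by Benjamini-Hochberg over all genes of a comparison and a threshold of 0.05. SE is the log2 fold change over the square root of F. Alternatives were DESeq2 1.42.0, RLE size factors, no filter, leaving out 6 libraries (those with fewer than 11000 genes of 10 counts, and mouse 65698), leaving out each library, 1 fit over all libraries, the mouse as a block and, added after seeing the data, 1 common population term. Same-numbered libraries come from the same mouse by their labels, which the sex-linked genes did not bear out for mouse 65698. The correlation of deviations from group means within same-numbered pairs, that mouse included, ran from -0.09 to 0.44, with a median of 0.15. No 2 libraries of a group agreed within sampling noise. On simulated counts, 87.5% of genes changed by a log2 of 2 and 51.6% of those changed by 1 were called for the averaged comparison (15196 genes). The shares were 54.7% and 4.76% for the populations in vehicle tumours (15194 genes), and for IR recurrence against vehicle 66.2% and 15.9% in MG (14065 genes) and 48.5% and 1.56% in BMDM (14098 genes). The receptors and all gene lists were chosen with earlier results of these data known. Named were receptors called in any comparison; values were to be given for up to 16 of these that reached a group mean of 3 log2 CPM, in order of the number of calls and then of p, and the 6 of highest mean level, of which 17 are described. For these 17, library values are given for vehicle and the groups of the comparisons that called them, and not for every group; the plots hold the rest. Certain receptors are not reported here and remain only in the counts over all receptors. Of the signalling lists, up to 4 called genes of smallest p in the average and up to 2 in another comparison were named. All 92 receptors matched RefSeq genes of GRCm38.p6, 72 by symbol and 20 by synonym; 66 had a promoter entry.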

Additional observations from a re-analysis of the deposited data

Results flagged for a closer look

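Among the 17 receptors, 136 groups of 4 libraries were examined for a library far from the other 3, by the share of the group's range taken up by its gap to the nearest, above Dixon's critical value, and 15 held one, where chance gives about 1 in 20 groups. In 7 of the 15 the other 3 libraries all had a count of 0, so that any count stood apart, and the share that chance gives does not hold for them. Levels are log2 CPM, and -3.53 is a count of 0. Gpr141 stood at 1.64 in 5-day BLZ945 MG of mouse 65975, where the other 3 were at -3.53. Gpr84 stood at 5.49 in IR-recurrent BMDM of mouse 68343, where the other 3 were at 6.77 to 6.93. Gpr18 stood at -0.49 in IR-recurrent MG of mouse 68344, where the other 3 were at 1.37 to 1.41. Gpr165 stood at 1.49 in 5-day BLZ945 BMDM of mouse 122, where the other 3 were at -3.53. Gpr165 stood at 1.56 in 5-day BLZ945 MG of mouse 65975, where the other 3 were at 0.03 to 0.24. Gpr165 stood at -3.53 in IR-recurrent BMDM of mouse 68343, where the other 3 were at -2.62 to -2.58. That group held 3 counts in all, so the share that chance gives does not hold for it either. Gpr55 stood at -2.21 in IR-BLZ945-recurrent MG of mouse 67543, where the other 3 were at -3.53. Gpr55 stood at -2.72 in vehicle BMDM of mouse 65967, where the other 3 were at 3.12 to 3.53. Gpr55 stood at -2.21 in vehicle MG of mouse 65967, where the other 3 were at -3.53. Gpr55 stood at -3.53 in IR-recurrent MG of mouse 68343, where the other 3 were at -1.27 to -0.89. Gpr126 stood at -1.53 in IR-BLZ945-recurrent MG of mouse 67543, where the other 3 were at -3.53. Gpr126 stood at -0.32 in IR-recurrent MG of mouse 68343, where the other 3 were at -3.53. Gpr153 stood at 1.48 in 5-day BLZ945 BMDM of mouse 65975, where the other 3 were at -3.53. Gpr183 stood at 7.98 in vehicle MG of mouse 65967, where the other 3 were at 6.41 to 6.67. Gpr107 stood at 6.52 in IR-recurrent MG of mouse 68344, where the other 3 were at 6.19 to 6.21. Of these libraries, BMDM of mouse 122 and MG of mouse 68344 belong to those that stood apart.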

How the results depend on the processing

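The 36 receptors that differed on average and the 91 calls within stages moved by less than 1.5 times in sum under each alternative run, with 30 and 79 calls with the mouse as a block. Leaving out each library gave 29 to 38 and 85 to 99. The 13 calls of MG against vehicle were 23 without the 6 libraries that stood apart, 5 in 1 fit over all libraries and 31 by DESeq2, and the 21 calls of recurrent against 5-day MG were 12 in 1 fit. By DESeq2 the 7 calls of BMDM against vehicle were 22 and the 12 of recurrent against 5-day BMDM 23. The 0 calls for a difference in response were 2 without the 6 libraries, 5 by DESeq2 and 0 with the block. Leaving out each library gave 1 to 23 for MG against vehicle, 15 to 26 for recurrent against 5-day MG, 2 to 14 and 6 to 17 for the same in BMDM, and 0 to 2 for the difference in response. For MG against vehicle the values that moved were 23 without MG 5-day BLZ945 mouse 65975, 20 without MG 5-day IR-BLZ945 mouse 67537, 8 without MG IR-BLZ945-recurrent mouse 67543 or MG vehicle mouse 65966 or MG IR-recurrent mouse 68343 or MG IR-recurrent mouse 68344 or MG IR-recurrent mouse 68345 or MG IR-recurrent mouse 68346, 1 without MG vehicle mouse 41 and 6 without MG vehicle mouse 65967. For BMDM against vehicle they were 13 without BMDM 5-day BLZ945 mouse 65975, 2 without BMDM vehicle mouse 41, 3 without BMDM vehicle mouse 65966 or BMDM IR-recurrent mouse 68343 or BMDM IR-recurrent mouse 68344 or BMDM IR-recurrent mouse 68345 or BMDM IR-recurrent mouse 68346 or BMDM vehicle mouse 78 and 14 without BMDM 5-day IR mouse 65972. For recurrent against 5-day BMDM they were 6 without BMDM BLZ945-recurrent mouse 67668 and 7 without BMDM BLZ945-recurrent mouse 70696 or BMDM IR-recurrent mouse 68346. For the difference in response they were 2 without MG 5-day BLZ945 mouse 65975 or BMDM 5-day BLZ945 mouse 65975 and 1 without MG 5-day IR-BLZ945 mouse 67537 or MG 5-day IR mouse 65698 or MG vehicle mouse 65967 or MG 5-day IR mouse 65972. Over the calls of named receptors, 723 of 825 values under other settings and 2097 of 2390 without 1 library kept their direction and passed, 101 and 292 no longer passed, and 1 and 1 reversed. The settings differed widely. With RLE size factors 158 of 159 calls were kept. In 1 fit over all 46 libraries, 22 of the 48 calls between stages within a population were kept and 26 lost. The receptors lost in that fit are not marked above. The reversed log2 fold changes of MG minus BMDM were those of Gpr174 in 5-day BLZ945 tumours (1.74 without the libraries that stood apart) and Gpr174 in 5-day BLZ945 tumours (1.71 without BMDM 5-day BLZ945 mouse 124), within a range over left-out libraries of -7.71 to 1.71. Except for averages that a left-out library made inestimable, the cause was not tested. Of the 92 receptors, 29 had too few counts to be tested and others held groups of at most 3 counts, where depth and low expression cannot be told apart.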
